A study of Homo sapiens with 2 samples.

Results

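Retinoid metabolism and receptor genes were examined in Ca9-22 cells, an oral squamous cell carcinoma (OSCC) line. The 10 genes were CRABP2, DHRS9, DHRS3, RDH10, RDH12, ALDH1A3, CYP26B1, RARA, RARG and RARRES3, chosen by the gene name of each non-control probe. They were 10 of the 43317 gene names on the array and had 13 of its 58201 probes. The control cells carried a control lentiviral vector, and the compared cells carried the vector pLenti6/V5-DEST with the full-length cDNA of the long noncoding RNA DLEU1. Both were selected with blasticidin at 6 mg/ml for 2 weeks and grown in RPMI-1640 with fetal bovine serum. One-colour labelling (Cy3) of total RNA was followed by hybridisation to an Agilent expression array. There was 1 array for each of the 2 groups, so no test, p-value or SD between replicates could be had, and 2 arrays limit the precision of every value. The promoter that drives DLEU1, and whether the selected cells were a pool or a clone, are not given in the sources used here.

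Retinoic acid is made from vitamin A in sequential oxidations. Short-chain dehydrogenases such as RDH10 and DHRS9 turn retinol into retinaldehyde, other members of the family such as DHRS3 and RDH12 reduce it back, and retinaldehyde dehydrogenases such as ALDH1A3 make the acid. CRABP2 carries retinoic acid to its nuclear receptors, which act with retinoid X receptors (RXR), and CYP26 enzymes hydroxylate it for removal. In stratified epithelia such as the oral lining, retinoids are best known for holding back keratinisation.

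The sequences below are those of the probes behind the 4 genes that differed by at least 2-fold, since each of these values rests on what a single 60-base probe bound. The first 30 bases of each probe are given, read from the deposited files. The CRABP2 probe maps to chromosome 1, from 156669579 to 156669638 (hg19, transcript NM_001878, minus strand). The RDH12 probe maps to chromosome 14, from 68200939 to 68200998 (hg19, transcript NM_152443, plus strand). The RARRES3 probe maps to chromosome 11, from 63313827 to 63313886 (hg19, transcript NM_004585, plus strand), and the probe for DHRS9 on chromosome 2 from 169952375 to 169952434 (hg19, transcript NM_001142270, plus strand). The part of the transcript (coding or untranslated) that each probe meets was not analysed here.
CRABP2 A_23_P115064: ccctacaccaacaaagaggaatggctgcaa
RDH12 A_23_P37088: tttctaggggctatacactccaactcttgg
RARRES3 A_23_P1962: aggcgttctctagatcctttcctctgtttc
DHRS9 A_23_P56559: actcatttagatcgtgcttatttggattgc

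CRABP2 had another probe, A_33_P3294826 of transcript NM_001199723, at positions 156675546 to 156675605 of the same chromosome (minus strand of hg19). Its 60 bases were found in the promoter window of CRABP2 from RefSeq (GRCh38.p14, chr1:156705735-156706034, minus strand), which is shown because the probe spans the start that RefSeq gives the gene. The capitals mark the probe, of which 29 bases lie before the start and 31 from it onwards.
CRABP2 promoter window: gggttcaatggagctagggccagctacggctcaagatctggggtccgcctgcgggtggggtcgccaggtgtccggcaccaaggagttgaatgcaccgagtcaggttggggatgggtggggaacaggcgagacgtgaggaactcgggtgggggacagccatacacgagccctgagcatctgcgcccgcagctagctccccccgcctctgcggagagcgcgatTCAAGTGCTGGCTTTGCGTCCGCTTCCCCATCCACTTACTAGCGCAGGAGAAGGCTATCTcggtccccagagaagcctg
Of the 10 genes, 7 had such windows, 14 in all. The letters AGGTCA or AGTTCA, and likewise GGGTCA or GGTTCA, forms of the half-site that retinoid receptors bind, were searched on both strands. A match was present in 5 of the 14 windows, against 38.6% of the 35116 windows of all genes. The match in the CRABP2 window was GGTTCA at bases 2 to 7. Direct repeats of such half-sites with a spacer of 1, 2 or 5 bases, which contain 2 half-site matches each, were found in 0 of the 14 windows, against 0.131%, 0.0399% and 0.0883% of all windows.

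Levels are log2 of the processed signal minus the 75th percentile of the non-control probes of the array, and differences are the level with the DLEU1 vector minus that with the control vector. A probe was detected where the software marked its spots as well above background, and a gene took the value of its brightest probe among those that both arrays detected. All 10 genes were detected on both arrays. CRABP2, RDH12 and RARRES3 were at least 2-fold higher with the DLEU1 vector, and DHRS9 was at least 2-fold lower. The other 6 genes stayed within 2-fold. The share at least 2-fold higher was 30% of the 10 genes, against 9.18% of the 20246 genes detected on both arrays, and the share at least 2-fold lower was 10%, against 9.78%. A single gene is 10% of this list. The median difference of the 10 genes was 0.57, against -0.07 for all 20246, and differences ran from -1.72 for DHRS9 to 2.44 for RDH12. With the arrays scaled by 8 spike-in probes instead, only 1 of the 10 genes, RDH12, was at least 2-fold higher, and the shares of all genes were 5.01% higher and 21.4% lower. RNA was measured in bulk, so fewer cells of a type and less RNA per cell cannot be told apart.

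**Figure D1:**
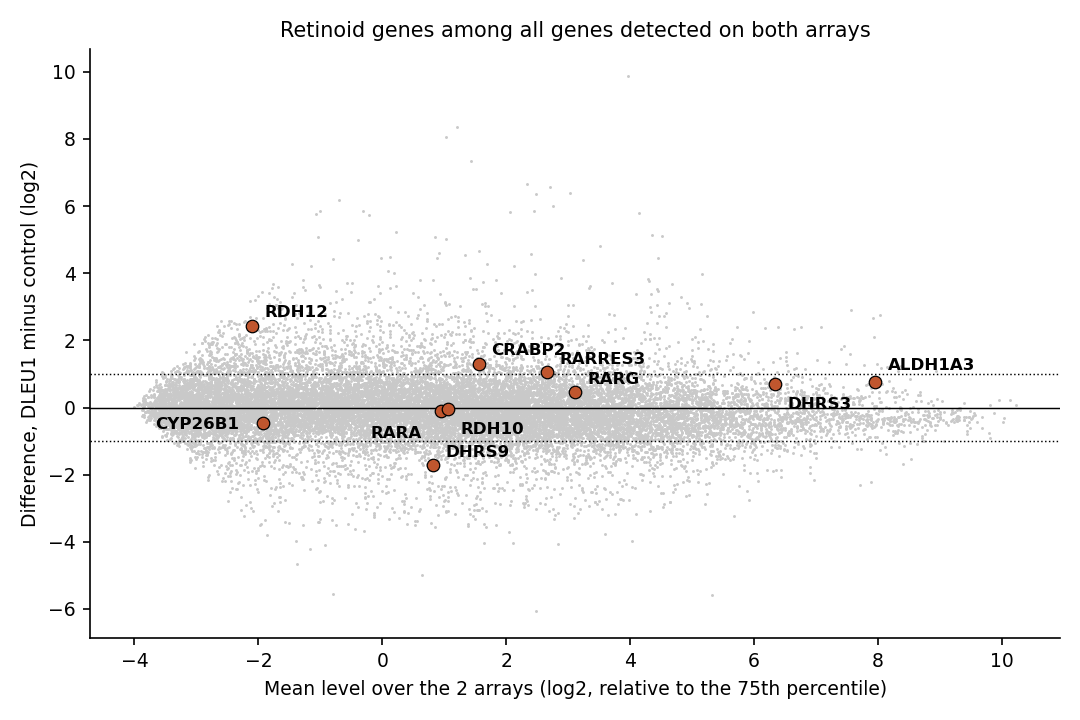
Each grey point is a gene detected on both arrays, with its mean level over the 2 arrays (log2) on the horizontal axis and its difference, DLEU1 vector minus control vector (log2), on the vertical axis. Orange points are the 10 retinoid genes and dotted lines mark 2-fold. RDH12 at 2.44, CRABP2 at 1.31 and RARRES3 at 1.05 lie above the upper line, and DHRS9 at -1.72 lies below the lower one.

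The arrays shared a slide and a scan, and 47.6% and 48.1% of probes were detected on the control and DLEU1 vector arrays. DLEU1 itself was at 3.17 and 5.91, a difference of 2.74 at its brightest probe, and its other 2 probes, of another transcript, had differences of 0.85 and 0.54. The SD of the difference between spots of the same probe was 0.0800 over 282 replicated probes, but 0.373 over the 3 of these with a mean level under -2. The error that the scanner software gives each spot came to about 0.20 for the difference of most retinoid probes. Both describe the measurement of an array and leave out the variation between cultures. A strip in the upper rows of the DLEU1 vector array, in columns 32 to 48, was darkened: 25.6% of its 1006 lit spots were at least 2-fold lower, against 12.6% of the 29132 elsewhere. The spots of DHRS9 and CYP26B1 lie in it, in a block of 60 lit spots where the share was 16.7%. All 7 squamous epithelial markers (KRT5, KRT14, KRT17, TP63, CDH1, EPCAM and DSG3) were detected on both arrays, with a summed level of 8.01 in the control and 9.84 in the DLEU1 vector cells, and 6 of the 7 were higher with the DLEU1 vector while EPCAM had a difference of -0.78. Of 7 markers of other cells, CD3E, COL1A2 and PECAM1 were not well above background on either array. PTPRC, COL1A1 and VWF were among those detected on both arrays, and the summed level of the 7 was 1.39 and 4.68. The part of these markers in the differences below was not tested.

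**Figure D2:**
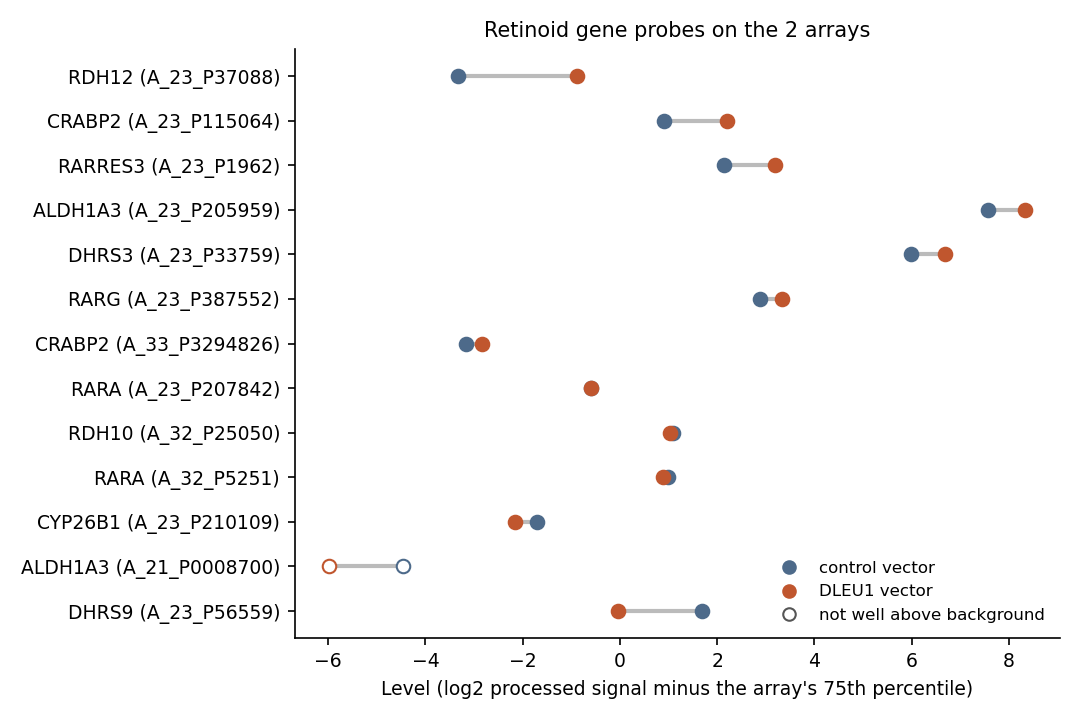
Level of each of the 13 retinoid probes (log2 processed signal minus the 75th percentile of the array) with the control vector (blue) and the DLEU1 vector (orange), in order of the difference. Hollow points were not well above background. RDH12 spans the widest gap upwards, from -3.33 to -0.89, and DHRS9 the widest downwards among detected probes, from 1.69 to -0.03.

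CRABP2, the carrier of retinoic acid to the nucleus, had a processed signal of 452 in the control and 1090 in the DLEU1 vector cells. Its level was 0.90 and 2.21, a difference of 1.31 (2.48-fold, software error 0.20), and 5.65% of all genes detected on both arrays had a difference as large or larger. The increase exceeded the spread between spots of a probe. The probe at the annotated start, whose window is shown above, was dim, with signals of 27.0 and 33.2. Its level was -3.16 and -2.83, a difference of 0.34 (software error 0.31). That difference was within the SD of 0.373 between spots of the 3 replicated probes with a mean level under -2. The direction of this dim probe is thus not resolved. With the mean of both probes the difference was 0.82, which is under 2-fold.

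RDH12 had the largest difference of the 10 genes. It is a retinaldehyde reductase best known from photoreceptors. Its signal was 24.1 in the control and 127.7 in the DLEU1 vector cells. The lowest signals of any detected probe were 14.2 and 14.3, so the control value was near the limit of detection. Its level was -3.33 and -0.89, a difference of 2.44 (5.44-fold, software error 0.30), and 1.17% of all genes had a difference as large or larger. With normexp background correction, which adds an offset to every spot, it was 1.13.

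DHRS9, which oxidises retinol, moved the other way. Its signal was 779 in the control and 230 in the DLEU1 vector cells, and its level was 1.69 and -0.03. The difference was -1.72 (3.29-fold lower, software error 0.21), and 2.78% of all genes had a difference as low or lower. The spot is at row 43 and column 36, inside the darkened strip. The 100 nearest lit spots had a median difference of -0.18, and relative to them DHRS9 was at -1.54. In the block of the array map that holds the spot, 16.7% of 60 lit spots were at least 2-fold lower, against 25.6% in the whole strip. Without the strip no DHRS9 value remains, so the value stands on a single spot inside the strip.

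**Figure D3:**
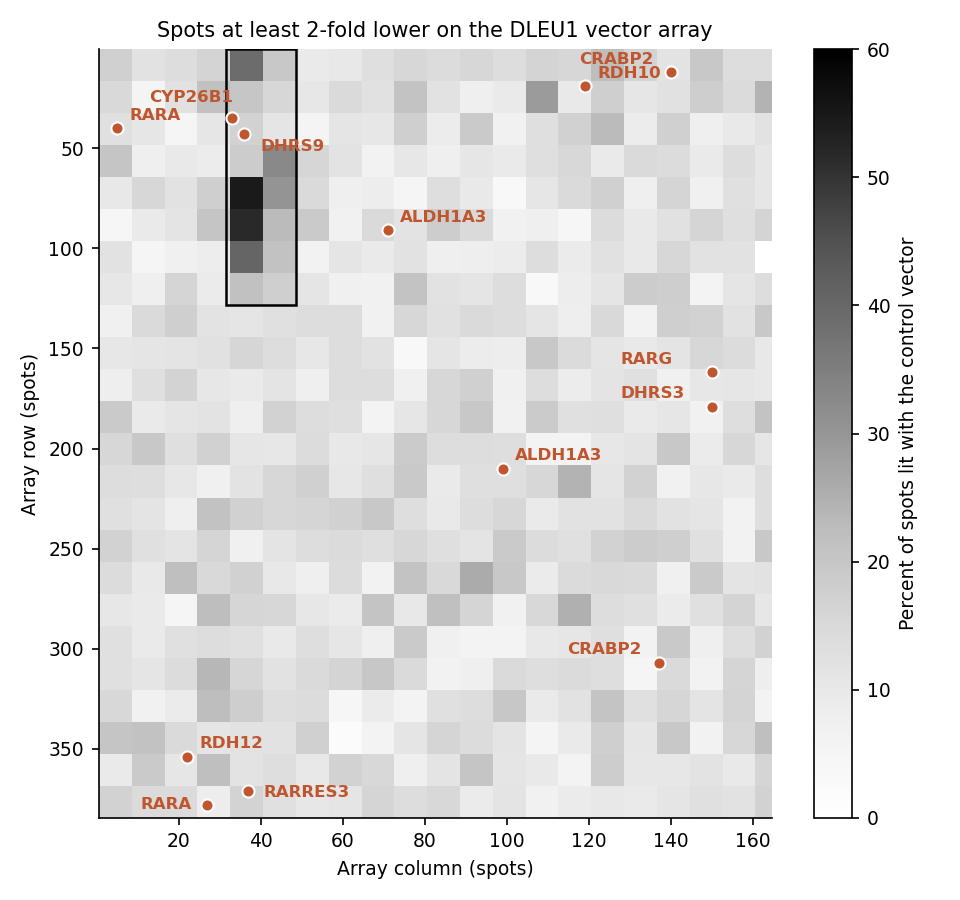
Map of the array by spot row and column, shaded by the percent of spots lit with the control vector that were at least 2-fold lower with the DLEU1 vector, in blocks of spots. Orange points are the 13 retinoid probes and the box is the darkened strip, where the share was 25.6%, against 12.6% elsewhere. DHRS9 and CYP26B1 are the retinoid probes inside the box, in a block where the share was 16.7%.

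DHRS3, which returns retinaldehyde to retinol, had signals of 15445 in the control and 24246 in the DLEU1 vector cells. Its level was 5.99 and 6.68, a difference of 0.69 (1.61-fold). RDH10, which makes retinaldehyde, had signals of 514 and 481 and levels of 1.08 and 1.03. Its difference of -0.06 was within the spread between spots and changed sign under 3 of the 15 other settings. A grouping by the reaction each is best known for was made after the values were seen. The oxidising enzymes DHRS9 and RDH10 had differences of -1.72 and -0.06 and the reductases DHRS3 and RDH12 had 0.69 and 2.44. DHRS9 rests on a spot in the darkened strip and RDH12 on a control value near the limit of detection. The other oxidoreductases, described below, were not grouped by reaction. Among them RDH16, which acts on retinol, had 2.77, the opposite sign to DHRS9 and RDH10, while RDH5 had -1.24, the same sign. RDH11, RDH13, RDH14 and DHRS4 ran from -0.46 to -0.30, the opposite sign to the reductases DHRS3 and RDH12. The grouping is thus a description of DHRS9, RDH10, DHRS3 and RDH12 alone, and whether it holds beyond them was not tested.

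ALDH1A3, the enzyme that makes retinoic acid from retinaldehyde, had signals of 46375 in the control and 76156 in the DLEU1 vector cells (A_23_P205959, chromosome 15 from 101456503 to 101456562, hg19). Its level was 7.58 and 8.33, a difference of 0.75 (1.69-fold). It stayed under 2-fold in the main setting and passed it only with loess, at 1.03. The array names another probe ALDH1A3 (A_21_P0008700), but its accession and description are those of LOC145757, a non-coding transcript. That probe was not well above background on either array, with signals of 10.9 and 3.75, and gives no value for ALDH1A3.

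CYP26B1, the hydroxylase that clears retinoic acid, was dim, with signals of 74.8 in the control and 53.1 in the DLEU1 vector cells. Its level was -1.70 and -2.15, a difference of -0.46. Its spot, at row 35 and column 33, also lies in the darkened strip, and relative to the 100 nearest lit spots the difference was -0.30. CYP26A1 and CYP26C1, the other hydroxylases of the family, were not well above background on either array.

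RARG and RARA stayed within 2-fold. RARG, the retinoic acid receptor most abundant in skin, had signals of 1790 in the control and 2393 in the DLEU1 vector cells (chromosome 12 from 53604565 to 53604624, hg19, minus strand). Its level was 2.89 and 3.34, a difference of 0.46 (1.37-fold), which fell to 0.06 with spike-in scaling. RARA, a receptor expressed in most tissues, was at 0.996 and 0.897 at its brighter probe (signals 483 and 439), a difference of -0.10. Its other probe was at -0.58 and -0.59, a difference of -0.01, with signals of 162 and 157. Both RARA probes lie on chromosome 17, from 38512928 to 38512987 and from 38513174 to 38513233 (hg19), and were 1.07-fold and 1.01-fold lower. RARB was not well above background on either array.

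RARRES3, which is listed under its older symbol on the array and is now PLAAT4, is a phospholipase and acyltransferase known to be raised by retinoids and also by interferons. Its signal was 1064 in the control and 2142 in the DLEU1 vector cells. Its level was 2.14 and 3.18, a difference of 1.05 (2.07-fold, software error 0.20), and 8.57% of all genes had a difference as large or larger. It was just past 2-fold, and fell short of it with median scaling, spike-in scaling and normexp.

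**Figure D4:**
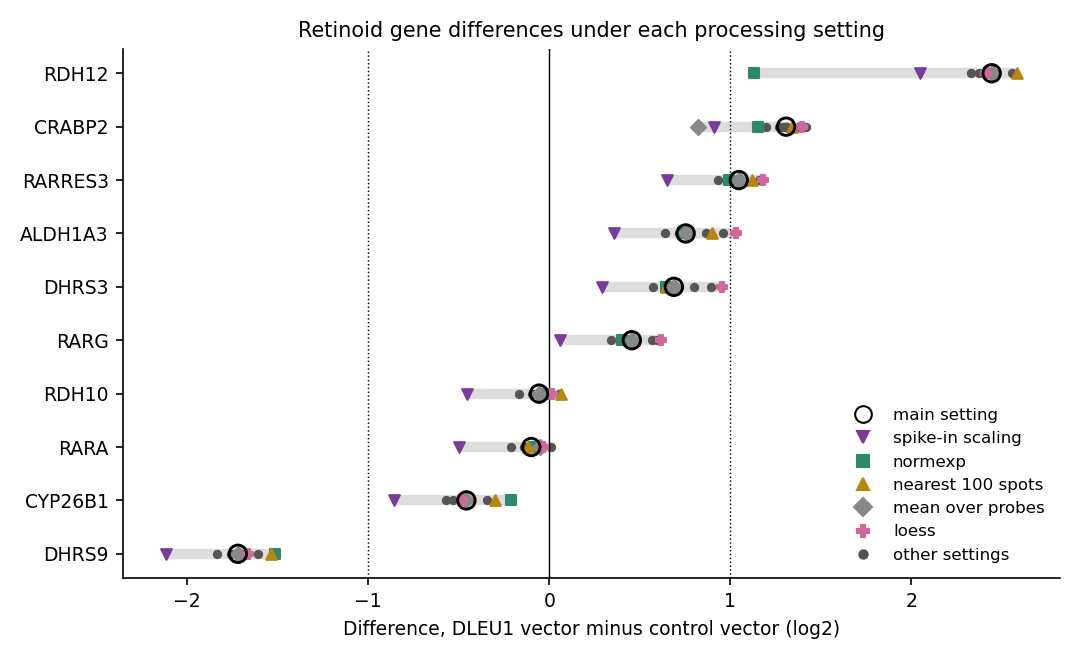
Difference of each retinoid gene, DLEU1 vector minus control vector (log2), under each processing setting. Open circles are the main setting, coloured symbols name the settings with the widest shifts, grey bars span all settings and dotted lines mark 2-fold. RDH12 spans 1.13 to 2.58, CRABP2 0.82 to 1.42, RARRES3 0.65 to 1.18 and DHRS9 -2.12 to -1.51.

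The rest of the pathway was described by a list of 46 other genes, of which 26 were detected on both arrays, 2 on 1 array and 18 on neither. Among the 26, 14 were higher and 12 lower, with a median difference of 0.05 against -0.07 for all genes. At least 2-fold higher were 7 (26.9%, against 9.18% of all genes), and 1 (3.85%, against 9.78%) was at least 2-fold lower.

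In binding and uptake, STRA6, the membrane receptor for retinol-binding protein, was at 3.38 in the control and 5.77 in the DLEU1 vector cells, a difference of 2.39 at its brighter probe and 0.38 at the other. FABP5, which also binds retinoic acid, was at 7.15 and 8.41, a difference of 1.26, and its 3 probes ran from 1.26 to 1.54. With spike-in scaling it was 0.86. FABP5 has near-identical copies in the genome, so its probes may share signal with them. CRABP1, the cytoplasmic relative of CRABP2, was at -2.01 and -2.90, a difference of -0.89, the opposite sign to CRABP2. RBP2, RBP4 and TTR were not well above background on either array, and RBP7 was detected with the control vector only, at least 1.44-fold higher there.

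Of the 15 other oxidoreductases, 9 were detected on both arrays, and 7 of the 9 were lower, with a median difference of -0.31. All genes detected on both arrays had a median of -0.07, and 53.7% of them were at -0.008 or lower. At least 2-fold higher was 1 of the 9 and at least 2-fold lower 1 (11.1% each, against 9.18% and 9.78% of all genes). RDH16, which acts on retinol and on steroids, was at -3.05 and -0.28, a difference of 2.77 from a dim control value like that of RDH12, and 1.53 with normexp. RDH5, known from the retinal pigment epithelium, was at 0.14 and -1.10, a difference of -1.24, which came to -0.89 with normexp. The other 7 ran from -0.46 for RDH13 to 0.42 for RETSAT. ALDH1A1, which like ALDH1A3 makes retinoic acid, was at -3.34 and -0.38, a difference of 2.96 at its brighter probe and 0.68 at the other. Both probes had a dim control value like that of RDH12. With normexp the brighter probe gave 1.52. ALDH1A2 was not well above background on either array.

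Among the partners of RARA and RARG, RXRA was at 7.56 and 7.90, a difference of 0.34 that turned to -0.06 with spike-in scaling, and RXRB was at 0.29 and 1.41, a difference of 1.12. RXRB fell short of 2-fold with spike-in scaling, at 0.72, and with normexp, at 0.92. RXRG was detected with the control vector only, through a probe of the non-coding transcript NR_033824, at least 2.76-fold higher there. The 9 coregulators were all detected, with 5 higher and 4 lower. NCOA3, a coactivator, was at 1.64 and 2.84, a difference of 1.199 (0.80 with spike-in scaling), and NCOA2 at -3.29 and -2.28, a difference of 1.01 from a dim control value. NCOA2 passed 2-fold under 7 of the 14 other settings. CREBBP, a histone acetyltransferase, was at 2.35 and 1.65, a difference of -0.71.

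**Figure D5:**
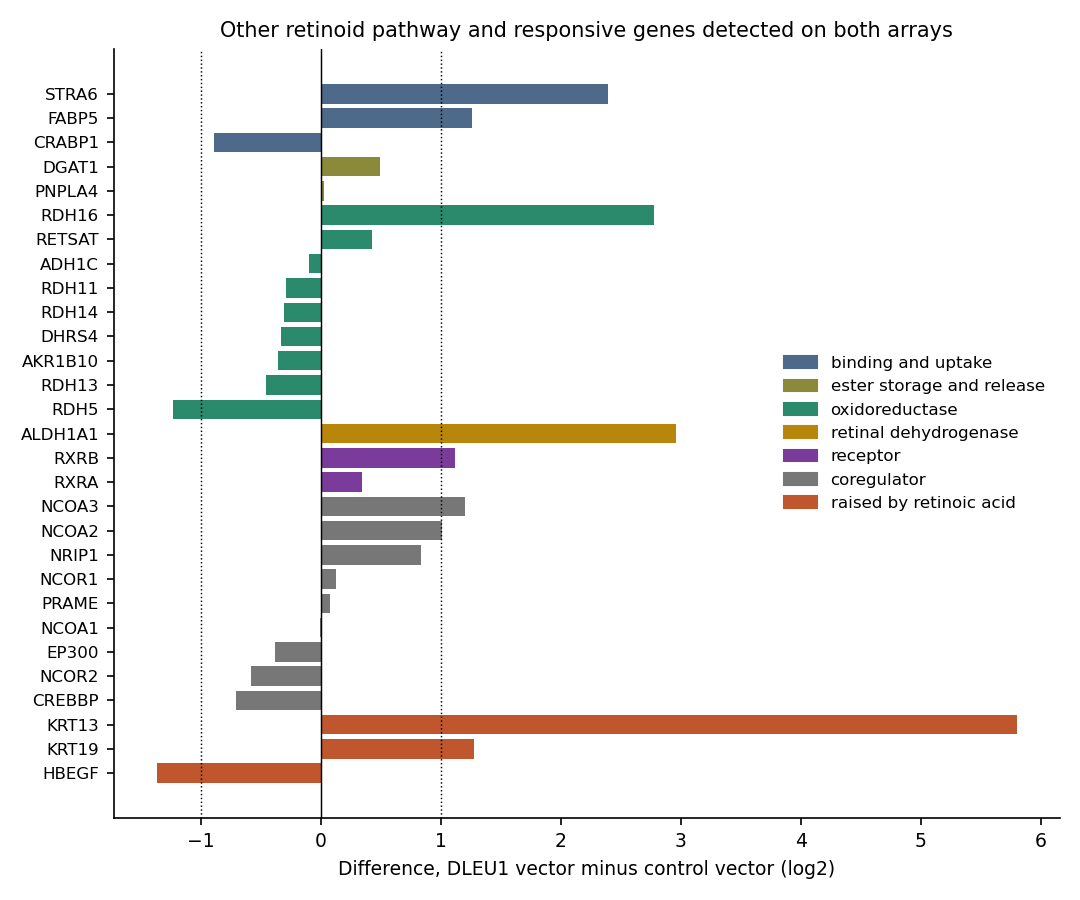
Difference, DLEU1 vector minus control vector (log2), of other retinoid pathway genes and of genes known to be raised by retinoic acid that were detected on both arrays, coloured by role. Dotted lines mark 2-fold. KRT13 reaches 5.80 and ALDH1A1, from a dim control value, 2.96. Below 0 lie 7 of the 9 oxidoreductases, while 53.7% of all genes detected on both arrays were at -0.008 or lower.

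A list of 12 genes known from other tissues and cells to be raised by retinoic acid was read beside RARRES3. Only 4 were detected on both arrays. KRT13, the keratin of non-cornified oral epithelium, was at 1.24 and 7.04, a difference of 5.80, KRT19, a keratin of simple and basal cells, at 8.86 and 10.13, a difference of 1.27 (0.87 with spike-in scaling), and STRA6 had the 2.39 given above. HBEGF, a growth factor, was at 0.31 and -1.07, a difference of -1.37, and -0.98 with normexp. TGM2, a transglutaminase, was detected with the control vector only, at least 1.58-fold higher there, and RARB, CYP26A1 and LRAT were detected on neither array. Of 7 genes known to be lowered by retinoic acid, 4 were detected on both arrays and all 4 were higher, KRT10 by 0.53, TGM1 by 2.49, FLG by 3.52 and IVL by 5.84. KRT1 and LOR were well above background in DLEU1 vector cells alone, at least 1468-fold and 45.2-fold higher there, and KRT2 in neither. Of the genes detected on both arrays, HBEGF was the single one of these 2 lists that was lower with the DLEU1 vector. In each list 3 of the 4 genes detected on both arrays were at least 2-fold higher, against 9.18% of all genes. At least 2-fold lower were 1 (raised list) and 0 (lowered list), against 9.78% of all genes. Both lists were chosen with earlier results of these data known.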

How the data were processed

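The authors hybridised 1 Cy3-labelled RNA of each group to 1 Agilent SurePrint G3 array and, per the methods, used GeneSpring. The deposited intensity values are processed signals from Agilent Feature Extraction 10.7.3.1, background-subtracted and detrended per the file headers, with other flags for well-above-background, saturated and outlier spots, and positions on hg19. The series values deposited by the authors held the same intensity, within 0.497%. Outlier spots (84 and 103) and controls were left out, spots of a probe were averaged as log2 of the deposited signal, and the 75th percentile of the array was subtracted. For a probe detected on a single array, the fold is a bound, set against the dim array's lowest detected level or, if higher, the probe's own level there. A change was called at 2-fold. The deposited software error (gProcessedSigError) gave the error of a difference.

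The members and lists were chosen with earlier results of these data known. The text names all members, DLEU1, the RAR and RXR receptors and every list gene past 2-fold or detected on 1 array only; other list genes were named after their values were seen, and some are counted in their lists but not reported here by name. Python 3.11.15 (numpy 2.4.6, pandas 2.3.3, scipy 1.17.1, matplotlib 3.10.9) and R 4.3.3 (limma 3.58.1) were used, tested on simulated data. Other settings were median, spike-in, detected-probe, quantile, loess (span 0.3) and no scaling, normexp (offset 50), series values, neighbouring spots, other filters, mean over probes, other thresholds and, chosen after seeing the data, leaving out the darkened strip. RefSeq windows matched 7 of 10 members.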

Additional observations from a re-analysis of the deposited data

How the results depend on the processing

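The median difference of the 10 retinoid genes stayed above 0 under the settings run. Loess gave 0.78, quantile normalization 0.75, a percentile taken on detected probes alone 0.68 and scaling to the median 0.46, and it was 0.17 with spike-in scaling and 0.70 without the darkened strip. These scalings moved the median of all genes by -0.11 (median), 0.11 (detected probes) and -0.40 (spike-in), and no filter moved it by 0.11. Members at least 2-fold higher numbered 3 in the main setting, 1 with spike-in scaling, 5 at 1.5-fold and 1 at 3-fold. The shares of all genes higher were 9.18%, 5.01%, 18.4% and 3.82% under these settings. Members at least 2-fold lower numbered 0 without the strip, which holds DHRS9. Other pathway genes higher numbered 7 in the main setting, 3 with spike-in scaling, 4 with a signal of at least 100 (7.27% of all genes) and 3 at 3-fold. Those lower numbered 1 in the main setting, 2 with median scaling, 3 with spike-in scaling, 0 with normexp, 5 with no filter, 3 with detection on at least 1 array, 3 at 1.5-fold and 0 at 3-fold. The shares of all genes lower were 9.78%, 12.1%, 21.4%, 6.98%, 8.79%, 11.7%, 22.0% and 3.31% in the same order. Genes raised by retinoic acid that were lower numbered 1 in the main setting, 0 with normexp, 4 with no filter, 3 with detection on at least 1 array and 0 at 3-fold. Fewer or more genes enter under the filters and thresholds, and for the scalings the cause was not tested. Of 146 single values of members, 97 stayed within the SD between spots and 4 changed sign, 3 of RDH10 and 1 of RARA. With 0 saturated spots, the setting without them is the main setting. Dim spots limit RDH12, CYP26B1 and the upstream CRABP2 probe, and RDH16, ALDH1A1 and NCOA2 among the other pathway genes. No paired analysis was possible because the labels carry no replicate numbers and each group has 1 array.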
